A study of Danio rerio with 8 samples.

Results

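The genes described here run entry into mitosis and exit from it: cyclins B1 and A2 with their kinase CDK1, the kinases plk1, aurka, AURKB and bub1, the anaphase activator CDC20, the spindle midzone protein PRC1 and the chromosome enzyme TOP2A. They were chosen by symbol, ignoring case, and the 10 symbols matched 11 of the 32520 gene rows, because PRC1 is present as a pair of rows with separate Ensembl identifiers. All 11 passed the expression filter, a mean of at least 1 TPM over the 8 libraries, which 16560 genes passed. RNA was sequenced from untreated whole zebrafish larvae at 2 days of age. The mutant group holds 4 libraries from larvae homozygous for the sa24730 allele of nphp8 (genotype m/m) that also lacked the maternal gene product, and the control group holds 4 libraries from larvae labelled WT, which the series design calls siblings. Larvae that lacked the maternal product and larvae truly WT would have different mothers, so genotype cannot be told apart from parentage or clutch. No transgene, drug or cell sort is given for either group, and how many larvae or clutches made up a library is not stated in the labels. A p-value here therefore reflects the spread among these libraries alone, part of which may be technical.

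Mitosis starts when CDK1, bound to cyclin A and then cyclin B, outweighs the phosphatases that oppose it. Polo-like kinase 1 and the Aurora kinases then build the spindle and correct its attachments, while BUB1 and its checkpoint partners hold back CDC20, the activator of the anaphase-promoting complex or cyclosome (APC/C), until every chromosome is attached. CDC20 then directs the APC/C to destroy securin and cyclin B, PRC1 bundles the microtubules between the separating chromosomes, and topoisomerase IIα untangles their DNA. In a larva at this age these transcripts come from whatever cells are dividing, in the retina, brain, blood and elsewhere. In bulk RNA of whole larvae, fewer dividing cells and less of a transcript per dividing cell cannot be told apart.

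Values are TPM, a length-adjusted share of a library's transcripts that sums to the same total in each, and the read depth is not known. A library listed from 23637 to 23964 genes above 0. The transcript of the mutated gene, listed as RPGRIP1L, had a ratio of 0.309 (mutant over control mean) and did not overlap between groups. Differences below are mutant minus control on the log2(TPM + 1) scale from limma, with p-values adjusted over all 16560 genes, and a gene is called changed at an adjusted p under 0.05. Erythroid and skeletal muscle transcripts took a larger share in mutants. The 9 erythroid marker rows summed to 5015 to 5154 TPM in controls and 8652 to 9030 TPM in mutants, with 6 of 8 tested higher and 1 lower, and the 7 muscle marker rows to 7954 to 8222 and 9685 to 9937 TPM, with 5 of 7 higher and 1 lower. Their part in the results below was not tested.

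Few of the rows differed, and those by little. CDC20 and both PRC1 rows fell by 8.9% to 13.8% in mutants, while CDK1, plk1 and the Aurora kinase genes had ratios of mutant to control mean between 0.974 and 1.02. In all, 3 of the 11 rows fell (27.3%), 0 rose and 8 were not called by limma. At an unadjusted p under 0.05, 4 were lower and 0 higher. Over all genes tested, 22.6% were called, 13.3% lower and 9.32% higher. The share was greater among the 5428 genes of at least 15 TPM, a level set after the members' levels were seen: 34.9% were called in either direction and 21.6% lower. The members' share of calls in either direction thus lies between these backgrounds, while their share of lower calls, 27.3%, is above both lower backgrounds. It rests on 3 rows, of which 2 are PRC1 copies, and nothing particular to mitotic genes is read from it. The groups did not overlap for 4 of the 11 rows (36.4%), against 26.1% of all genes tested and 37.5% of those of at least 15 TPM. The median difference of the members was -0.04 and that of all genes tested was -0.01, and the median absolute difference was 0.0485 for the members and 0.106 for all genes tested. All genes tested include those down to a mean of 1 TPM, and the absolute difference was not set against genes of the members' level.

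**Figure D1:**
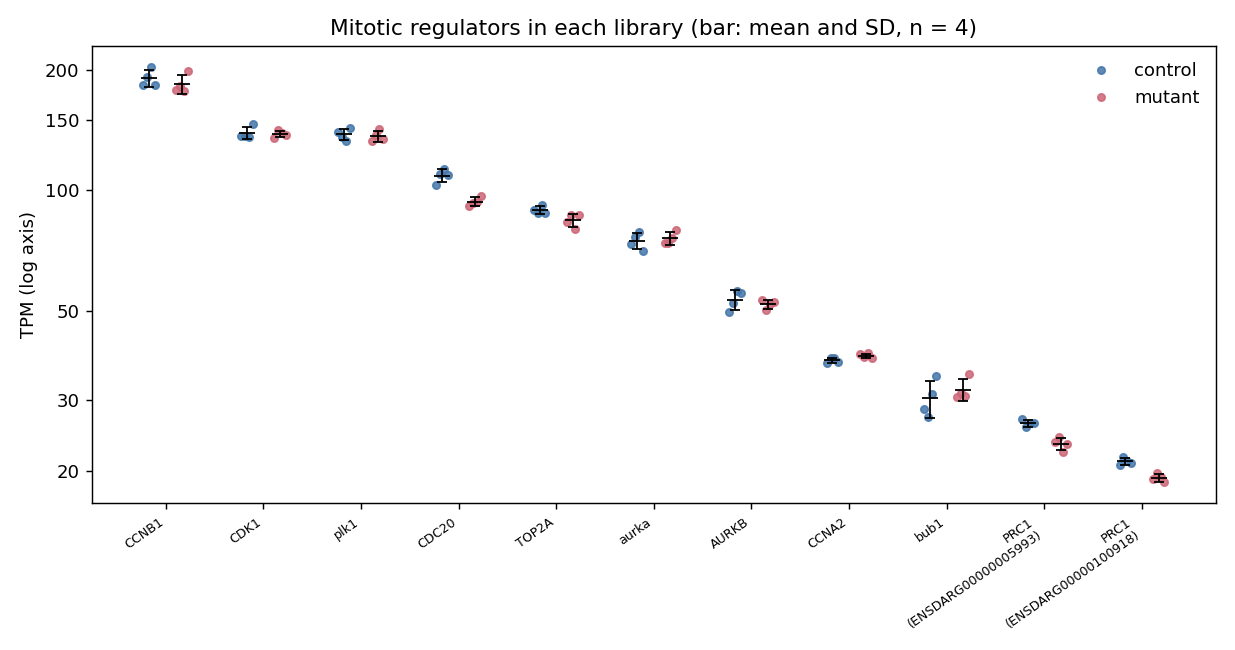
TPM on a log axis of each of the 11 mitotic regulator rows in the 4 control (blue) and 4 mutant (red) libraries, with bars for the mean and SD (n = 4). CDC20, TOP2A and both PRC1 rows have every mutant library below every control library, and the other 7 rows overlap.

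The levels fell in an order that was stable over the libraries. TPM accounts for length but not for every bias between genes, so the order is one of TPM values. CCNB1 was the most abundant at a mean of 187.1 TPM over the 8 libraries, and the PRC1 row ENSDARG00000100918 the least at 20.2 TPM. CDK1 (138.6 TPM) and plk1 (137.2 TPM) could not be ordered, since CDK1 was above plk1 in 6 of 8 libraries and their ranges overlapped. CDC20 (101.3 TPM) was above TOP2A (86.8 TPM) in 8 of 8 libraries, although the lowest CDC20 value, 91.5 TPM in a mutant, was under the highest TOP2A value, 92.1 TPM in a control. Every other neighbouring pair, from aurka (75.4 TPM) through AURKB (52.8 TPM), CCNA2 (38.3 TPM) and bub1 (31.1 TPM) to the PRC1 rows, had separate ranges over the 8 libraries. The 11 rows summed to 889.3 to 928.5 TPM in controls and 860.6 to 902.2 TPM in mutants, so the summed ranges overlapped, with means of 909.1 ± 16.6 and 878.3 ± 17.5 TPM (SD, n = 4 each). That is between 0.0861% and 0.0929% of a library.

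CDC20 recognises substrates for the APC/C and is itself the target of the spindle checkpoint. Control replicates 1 to 4 held 103.14, 110, 112.75 and 109.44 TPM of it, and mutant replicates 1 to 4 held 91.53, 93.11, 93.82 and 96.8 TPM. Values of the other genes follow the same order of replicates. Every mutant library was below every control library. The means were 108.8 ± 4.06 and 93.8 ± 2.21 TPM (SD, n = 4 each), so CDC20 fell by 13.8%, with a log2 difference of -0.21 (SE 0.0318, 95% interval -0.28 to -0.14, limma adjusted p = 0.00125). Among the 11 rows this was the largest absolute difference. It was -0.20 after median-of-ratios rescaling and -0.19 when libraries were rescaled without mitochondrially encoded genes and the 50 most abundant genes. Without any single library it lay between -0.24 and -0.19, with an adjusted p of at most 0.00525.

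PRC1 crosslinks antiparallel microtubules in the anaphase midzone, where the cleavage furrow forms. The row ENSDARG00000005993 stood at 26.99, 25.69, 26.38 and 26.28 TPM in controls and at 23.56, 24.27, 22.31 and 23.41 TPM in mutants. The groups did not overlap. It fell by 11.2%, from 26.3 ± 0.532 to 23.4 ± 0.81 TPM (SD, n = 4 each), with a log2 difference of -0.17 (SE 0.0352, limma adjusted p = 0.00847). The row ENSDARG00000100918 stood at 20.74, 21.66, 21.16 and 20.93 TPM in controls and at 19.13, 19.75, 19.34 and 18.75 TPM in mutants, again with no overlap. It fell by 8.9%, from 21.1 ± 0.397 to 19.2 ± 0.417 TPM, with a log2 difference of -0.13 (SE 0.0332, limma adjusted p = 0.0204). This second call was close to the threshold and was lost without control replicate 2, mutant replicate 1 or mutant replicate 4 (adjusted p from 0.0505 to 0.0574). The rows share a symbol, so reads common to both may have been divided between them by estimate, and they are not independent evidence of each other. Their sum is therefore given too, although in TPM it can still depend on that division where the rows differ in length. It was 47.73, 47.35, 47.54 and 47.21 TPM in controls and 42.69, 44.02, 41.65 and 42.16 TPM in mutants. The sum fell by 10.2% (log2 difference -0.15, SE 0.0274, limma adjusted p = 0.00337 in a fit with all copies summed). ENSDARG00000005993 made up 55.5% of the sum in controls and 54.9% in mutants, with a range of 53.6% to 56.5% over libraries.

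TOP2A encodes topoisomerase IIα, which decatenates sister chromatids. Its values were 89.42, 88.08, 92.14 and 87.84 TPM in controls and 83.47, 86.75, 80.05 and 86.92 TPM in mutants. No mutant library reached a control library, but the nearest values, 86.92 and 87.84 TPM, differed by less than the spread within either group. The ratio of the means was 0.943, and the log2 difference of -0.08 (SE 0.0322, 95% interval -0.16 to -0.01) did not pass after adjustment (limma adjusted p = 0.091). It passed in none of the 17 alternatives, in which its adjusted p ran from 0.0758 to 0.198.

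The cyclins did not pass, and their point differences had opposite signs. CCNB1, the cyclin that carries CDK1 through mitosis until CDC20 has it destroyed, was at 183.07, 191.94, 203.27 and 182.85 TPM in controls and at 178.01, 182.1, 177.02 and 198.8 TPM in mutants. The groups overlapped, with mutant replicate 4 above every control but 1. The ratio was 0.967 and the log2 difference -0.05 (95% interval -0.15 to 0.05, limma adjusted p = 0.48). CCNA2, which acts in S phase and in early mitosis, was the least variable row, at 37.22, 38.17, 38.28 and 37.35 TPM in controls and 39.06, 38.49, 39.26 and 38.25 TPM in mutants. The ranges touched only through mutant replicate 4, which lay under control replicate 3. Its ratio was 1.03 and its log2 difference 0.04 (95% interval -0.02 to 0.10, limma adjusted p = 0.357).

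The kinases of mitotic entry did not pass either. CDK1, the catalytic partner of both cyclins, was at 136.96, 136.58, 135.75 and 146.2 TPM in controls and at 135.17, 141.06, 139.2 and 137.75 TPM in mutants. Control replicate 4 stood apart at the top. Mutant replicate 1 was the lowest library, and mutant replicates 2 to 4 lay above control replicates 1 to 3. The log2 difference was -0.01, with a 95% interval from -0.07 to 0.06, or from -4.74% to 4.18% in TPM + 1, so differences within those bounds are not resolved by these libraries (limma adjusted p = 0.914). The kinase plk1, which promotes entry, spindle assembly and cytokinesis, was at 140.15, 135.54, 132.6 and 142.89 TPM in controls and at 132.65, 137.22, 142.2 and 134.16 TPM in mutants. Its groups covered almost the same range, and its interval ran from -5.62% to 4.09% (limma adjusted p = 0.81). The point differences of CDK1 and plk1 were both negative as deposited and turned positive under either rescaling.

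The Aurora kinases act at different places, aurka at centrosomes and spindle poles and AURKB at centromeres and the midzone. Values of aurka were 73.33, 76.34, 78.93 and 70.81 TPM in controls and 74.1, 73.93, 76.1 and 79.91 TPM in mutants, and those of AURKB were 49.71, 52.51, 56.13 and 55.57 TPM and 53.35, 50.29, 52.12 and 52.6 TPM. Both genes overlapped between groups, and for AURKB all 4 mutants lay within the control range. The intervals ran from -4.43% to 7.92% for aurka (limma adjusted p = 0.728) and from -8.46% to 3.93% for AURKB (limma adjusted p = 0.575). The checkpoint kinase gene bub1 varied most, at 28.61, 27.2, 31.15 and 34.48 TPM in controls and 30.54, 31.26, 30.83 and 34.86 TPM in mutants. Its coefficient of variation was 10.5% in controls and 6.32% in mutants, against medians over the 11 rows of 3.54% and 3.09%. A difference of bub1 is bounded only loosely, between -5.83% and 17.3% (limma adjusted p = 0.511).

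**Figure D2:**
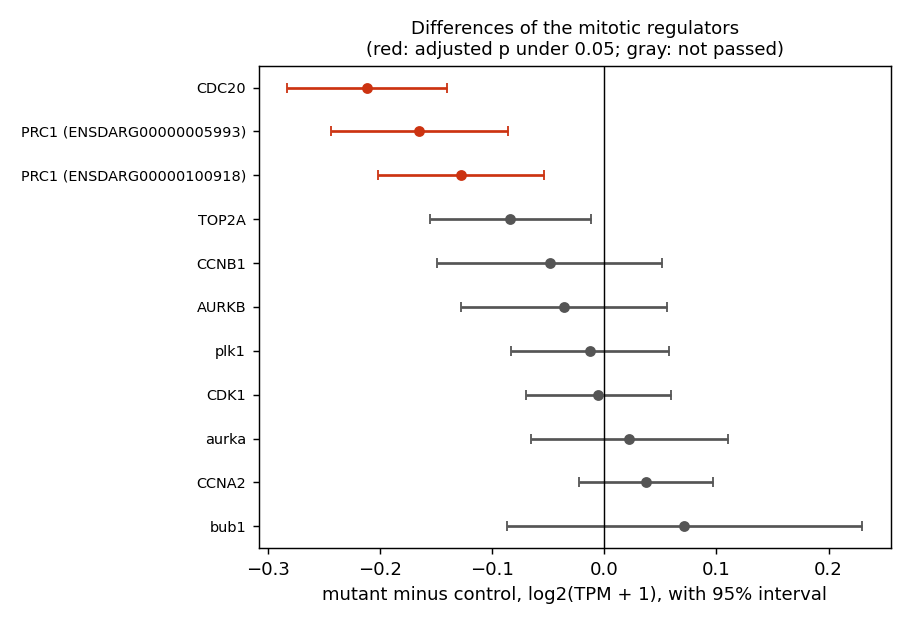
Mutant minus control difference of each row on the log2(TPM + 1) scale (point) with its 95% interval from limma (bar), in red where the adjusted p was under 0.05 and in gray otherwise. CDC20 (-0.21) and both PRC1 rows (-0.17 and -0.13) are called lower, the interval of TOP2A ends at -0.01 without passing the adjusted test, and the other 7 intervals include 0.

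In no library did all 11 rows lie on the same side of their group means, and how far they moved together was not tested. Control replicate 1 and mutant replicate 1 were each above the group mean for 3 rows. Control replicate 3 was above its group mean for 9 of the 11 rows and held the group maximum for 6, whereas mutant replicate 4 was above for 7 and held 5 maxima. Within groups the median deviation of a library over the rows was between -0.03 and 0.04 on the log2 scale. The largest single deviation was that of bub1 in control replicate 4, 0.18 above its group mean.

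**Figure D3:**
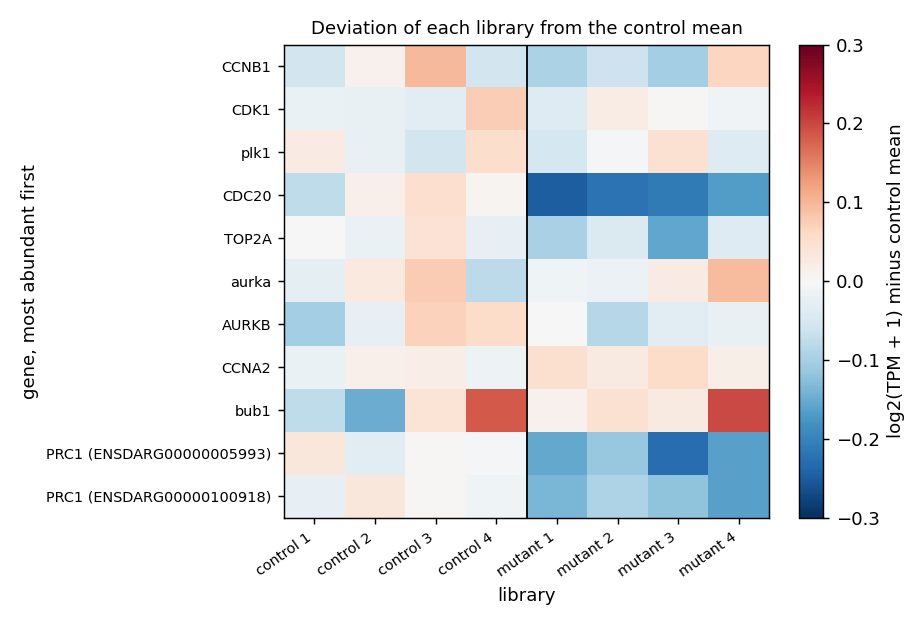
Deviation of each library (columns, controls left of the line and mutants right) from the control mean of each row on the log2(TPM + 1) scale, with blue for lower and red for higher. All 4 mutant libraries are below the control mean for CDC20 and both PRC1 copies. The same holds for TOP2A and AURKB, which were not called. The row of bub1 is reddest in control replicate 4 and mutant replicate 4.

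Ratios within a library, which do not depend on how it was scaled, were formed for 4 pairs and compared by an exact permutation test over 70 assignments (two-sided, smallest possible p = 0.0286). CDC20 over its interphase counterpart FZR1, the activator also called Cdh1 (copies summed), was 1.84, 1.91, 2.01 and 1.97 in controls and 1.73, 1.71, 1.68 and 1.88 in mutants. The groups overlapped through mutant replicate 4. The means were 1.93 ± 0.0735 and 1.75 ± 0.0896 (SD, n = 4 each), and the log2 difference of -0.14 did not pass (exact permutation p = 0.0571, Benjamini-Hochberg adjusted over the 4 ratios 0.229). The ratio of plk1 to WEE1, the kinase that restrains CDK1, was 6.21 ± 0.201 in controls and 5.93 ± 0.262 in mutants (exact permutation p = 0.143, adjusted 0.286). CCNB1 over CCNB2, a second B-type cyclin, was 11.1 ± 0.638 and 10.7 ± 1.22, and aurka over AURKB was 1.4 ± 0.0901 and 1.46 ± 0.0537 (exact permutation p = 0.571 and 0.4). The adjusted values of these last ratios were 0.571 and 0.533.

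The surrounding machinery was described with 12 lists of mitotic genes, from APC/C subunits to the DREAM and MuvB regulators that time mitotic transcription. Among the 159 tested, 24 fell, 12 rose and 123 were not called. That is 22.6% called, as over all genes tested, and below the 34.9% of genes of at least 15 TPM. The listed genes lie on both sides of that level. By list, the share called lower ran from 0% to 33.3%, against 13.3% of all genes tested. It was 14.3% for APC/C subunits, 7.69% for the topoisomerase and condensin list and 0% for the DREAM list. The median difference was 0.00. Without the members the counts were 12 higher and 21 lower of 148. The count of higher genes was unstable. It fell to 6 without control replicate 1, 7 without control replicate 3, 5 without control replicate 4, 7 without mutant replicate 2, 7 without mutant replicate 3 and 6 without mutant replicate 4, and reached 18 after median-of-ratios rescaling and 19 without mitochondrial and the most abundant genes. The count of lower genes ran from 16 to 21 when single libraries were left out. Calls over all genes moved as well. Without single libraries, genes called higher fell from 1543 to between 1209 and 1354, and lower from 2202 to between 1700 and 2045. The share of all calls that were higher went from 41.2% to 48.5% after median-of-ratios rescaling and to 50.7% after the other rescaling. A call lost without 1 library therefore need not point to that library.

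**Figure D4:**
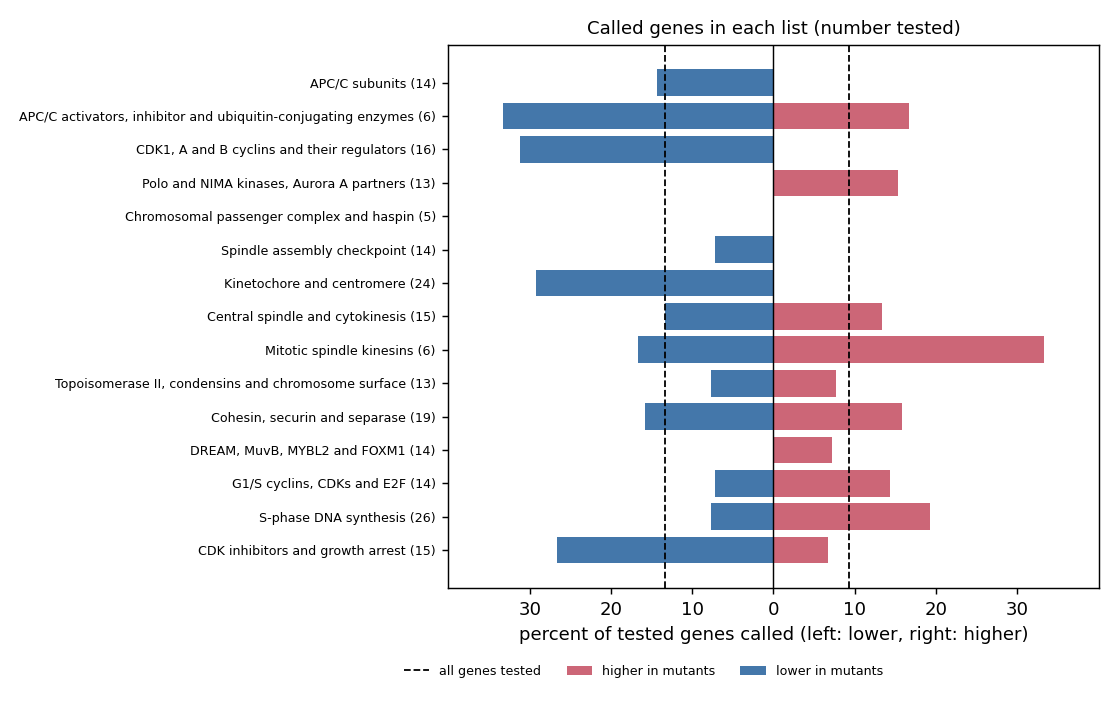
Percent of the tested genes of each list (number tested in brackets) called lower (blue, left) or higher (red, right) in mutants at a limma adjusted p under 0.05. The dashed lines mark the shares over all genes tested, 13.3% lower and 9.32% higher. The lists of APC/C subunits, CDK1 regulators, spindle checkpoint and kinetochore genes have called genes on the lower side alone. Those of Polo and NIMA kinases and of DREAM genes have them on the higher side alone, and the chromosomal passenger list has none.

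Among APC/C genes, 2 of 14 subunits fell and 0 rose (3 and 0 at an unadjusted p under 0.05): ANAPC11, the RING subunit, from 57.9 ± 1.41 to 49.9 ± 4.24 TPM (SD, n = 4 each; log2 difference -0.22, limma adjusted p = 0.0185), and the small subunit ANAPC16, at a ratio of 0.916. The ANAPC11 call was lost without control replicate 4 (adjusted p = 0.0502), and that of ANAPC16 without control replicates 2, 3 or 4 or mutant replicates 2 or 3 (up to 0.0825). Of the 6 activators, inhibitors and ubiquitin-conjugating enzymes tested, CDC20 and FZR1 fell (FZR1 ratio 0.932, adjusted p = 0.0449) and fzr1b, a copy of low level, rose from 5.08 ± 0.289 to 5.89 ± 0.319 TPM (adjusted p = 0.0496). The FZR1 call held only without mutant replicate 3 and was otherwise lost when 1 library was left out (adjusted p up to 0.105). That of fzr1b was lost without any 1 of the 8 libraries (0.0504 to 0.116). The APC/C inhibitor gene fbxo5, which encodes Emi1, had a ratio of 1.06 and did not pass (adjusted p = 0.219).

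The regulators of CDK1 held the largest called decreases of the 12 lists. Of 16 tested, 5 fell and 0 rose (8 and 1 at an unadjusted p under 0.05). The share called lower was 31.25%, against 13.3% of all genes tested and 21.6% of those of at least 15 TPM. The kinase gene mastl (Greatwall) fell from 25.6 ± 0.972 to 19.9 ± 1.4 TPM (SD, n = 4 each), with values of 24.45, 26.11, 25.16 and 26.63 TPM in controls and 19.58, 20.94, 18.1 and 21.1 TPM in mutants, a log2 difference of -0.35 and a limma adjusted p = 0.00121. Its substrate ARPP19 (ENSDARG00000039880), which once phosphorylated inhibits the phosphatase PP2A-B55 that opposes CDK1, stood at 128.71, 131.63, 132.74 and 121.56 TPM in controls and 100.12, 98.5, 97.75 and 104.91 TPM in mutants. It fell by 22% (log2 difference -0.36, adjusted p = 7.74e-05). Neither gene overlapped between groups, and both calls held in the alternatives in which the gene was fitted. The other ARPP19 row (ENSDARG00000032532), named likewise after its value was seen, had a ratio of 0.922 and did not pass (adjusted p = 0.0678). CKS1B, a small CDK-binding subunit, fell to a ratio of 0.827 (adjusted p = 0.00158), and CKS2 (ENSDARG00000117089) and the CDK1-activating phosphatase gene cdc25b, named after their values were seen, to 0.889 and 0.903. The CKS2 call was lost without control replicate 4, mutant replicate 1 or mutant replicate 3 (up to 0.0634), and that of cdc25b without any library but control replicate 2 (up to 0.0892). The other cks2 row (ENSDARG00000071410), named likewise, had a ratio of 1.01 and did not pass (limma adjusted p = 0.915). WEE1, a clock-controlled gene in mouse liver, was at 22.2 ± 0.458 and 23.1 ± 0.408 TPM and did not pass (adjusted p = 0.272).

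The shares called in the lists of the other kinases were 15.4% (Polo, NIMA and Aurora A), 0% (chromosomal passenger) and 7.14% (spindle checkpoint). Over all genes tested 22.6% were called. These lists are small, and nothing is read from their shares. Of 13 Polo, NIMA and Aurora A genes, PLK2 (ENSDARG00000090752; ratio 1.25, limma adjusted p = 0.0136) and PLK4, the kinase of centriole duplication (9.95% higher, adjusted p = 0.0384), rose and 0 fell (3 and 0 at an unadjusted p under 0.05). The other PLK2 row (ENSDARG00000019130), named after its value was seen, was more abundant, at a mean of 10.8 against 5.77 TPM. Its ratio was 1.06 and it did not pass (limma adjusted p = 0.322). The PLK4 call held only without mutant replicate 2 (otherwise up to 0.0958). Of 5 tested genes in the list of the chromosomal passenger complex and haspin, 0 were called by limma, and 0 at an unadjusted p under 0.05. That list includes AURKB itself, and the passenger gene incenp matched no row. Of 14 spindle checkpoint genes, bub1bb, a gene for the BUB1-related protein BUBR1, fell to a ratio of 0.849 (adjusted p = 0.0196), a call lost without control replicate 4, mutant replicate 1 or mutant replicate 3 (up to 0.0556), and 0 rose. The other copy, bub1ba, named after its value was seen, was more abundant, at a mean of 22.2 against 9.3 TPM. Its ratio was 0.921 and it did not pass (limma adjusted p = 0.0543). At an unadjusted p under 0.05, 4 checkpoint genes were lower and 0 higher.

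Kinetochore genes were called only as lower, 7 of 24 by limma (8 lower and 2 higher at an unadjusted p under 0.05). That is 29.2%, against 13.3% of all genes tested and 21.6% of those of at least 15 TPM. The median difference of the list was -0.01. The gene ska2, whose product helps couple kinetochores to microtubule ends, fell from 11.5 ± 0.294 to 9.39 ± 0.143 TPM (SD, n = 4 each; log2 difference -0.26, limma adjusted p = 0.00118). MIS12, of the outer kinetochore, and cenpk, of the inner, constitutive network at the centromere, fell to ratios of 0.864 and 0.879. The other members called lower, named after their values were seen, were NSL1 (0.878), cenpu (0.887), nuf2 (0.904) and SPC25 (0.931). When single libraries were left out the count ran from 5 to 6. Calls of cenpu and SPC25 were each lost without 6 of the 8 libraries (adjusted p up to 0.11 and 0.0785). The cenpu call held without mutant replicates 2 and 3, and the SPC25 call without control replicates 3 and 4.

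Genes of the midzone, spindle and chromosomes went both ways. Of 15 central spindle and cytokinesis genes, 2 rose and 2 fell, the latter being the PRC1 rows. The count of higher genes in this list was 0 without control replicates 1 or 4 or mutant replicates 3 or 4, and 1 without control replicate 3 or mutant replicate 2. RACGAP1, a centralspindlin subunit that works beside PRC1, rose to a ratio of 1.09 (limma adjusted p = 0.033). The RACGAP1 call held only without control replicate 2 or mutant replicate 1 (otherwise up to 0.0838). Of 6 spindle kinesins, kif2c, a microtubule depolymerase at centromeres, fell to a ratio of 0.854, while the chromokinesin KIF22 and the spindle motor kif15 each rose by 0.14 on the log2 scale. The kif15 call held only without mutant replicate 1 (otherwise up to 0.0972). Of the 13 genes listed with TOP2A, the condensin II subunit NCAPG2 had the largest called increase of the 12 lists, from 12 ± 0.173 to 16.7 ± 1.52 TPM (SD, n = 4 each; log2 difference 0.44, adjusted p = 0.000521), and the histone H4 methyltransferase gene kmt5ab fell to a ratio of 0.866.

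Of 19 cohesin and separation genes, 3 rose and 3 fell. The cohesin subunits STAG1 (ENSDARG00000062137) and SMC1A (ENSDARG00000058203) and the shugoshin gene sgo1, which guards centromeric cohesin, rose to ratios of 1.20, 1.08 and 1.16. The other shugoshin gene, sgo2, fell to 0.803 (limma adjusted p = 0.000868), cdca5 (sororin) to 0.87, and pttg1, for the securin that CDC20 targets, to 0.867 (adjusted p = 0.0465). The groups of pttg1 overlapped, and its call held only without mutant replicate 4 (otherwise up to 0.113). The SMC1A call held only without mutant replicate 1 (otherwise up to 0.0874), and that of sgo1 was lost without control replicate 4 or mutant replicate 2 (up to 0.0557). Of 14 DREAM and MuvB genes, only tfdp2, an E2F partner, was called, at a ratio of 1.13, and FOXM1, an activator of mitotic genes named after its value was seen, was at 19.0 and 18.5 TPM (adjusted p = 0.553).

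Genes of earlier cell cycle phases were tested for comparison. Of 14 G1/S genes, CDK4, the kinase of cyclin D, fell from 32.6 ± 0.946 to 24.1 ± 1.31 TPM (SD, n = 4 each; log2 difference -0.42, limma adjusted p = 0.000103), while e2f2 and E2F7 rose to ratios of 1.12 and 1.14. The e2f2 call was lost without control replicates 1 or 2 or mutant replicate 3 (adjusted p up to 0.0558), and that of E2F7 held only without mutant replicates 1 or 4 (otherwise up to 0.0772). Of 26 S-phase genes, 5 rose and 2 fell, and 2 to 4 were higher when single libraries were left out. RRM1, for ribonucleotide reductase, rose from 180.9 ± 2.95 to 198.7 ± 3.45 TPM (adjusted p = 0.00221), MCM2 of the replicative helicase to a ratio of 1.09, and the polymerase gene POLE to 1.11, whose call was lost without any 1 of the 8 libraries (0.0571 to 0.112). The helicase genes MCM5 (ratio 1.06) and MCM7 (1.08), picked out once their values were known, rose as well. The MCM5 call held only without control replicate 3 (otherwise up to 0.112), and that of MCM7 was lost without control replicates 1, 2 or 4 or mutant replicates 1 or 4 (up to 0.112). GMNN, the licensing inhibitor geminin that the APC/C destroys, fell to 0.849 (adjusted p = 0.000659), and the other reductase subunit RRM2 (ENSDARG00000078069) to 0.95, a call lost under both rescalings and without a variance trend. Of 15 CDK inhibitor and growth arrest genes, 1 rose, cdkn1cb (ratio 1.28), and 4 fell, among them BTG2 (0.782), CDKN2C (0.762) and GADD45B (ENSDARG00000013576; 0.708). The remaining gene that fell, named after its value was seen, was cdkn1ca, so the cdkn1c copies were called in opposite directions. Over the alternatives its log2 difference lay between -0.22 and -0.18, with a limma adjusted p of at most 0.0181. CDKN2C lost its call without control replicates 1 or 2 or mutant replicate 1 (up to 0.0544), and GADD45B without control replicates 3 or 4 (up to 0.0723). The p53 target cdkn1a was at 2.11 ± 0.293 and 2.2 ± 0.406 TPM and did not pass (adjusted p = 0.853).

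Markers of neural and retinal progenitors and of germ cells were set beside these values. Of 13 neural and retinal progenitor marker rows, 5 fell and 1 rose. The share that fell was 38.5%, against 13.3% of all genes tested and 21.6% of those of at least 15 TPM. The median log2 difference of these rows was -0.11. Their summed TPM, which the most abundant rows weigh on most, overlapped (1249 to 1296 in controls and 1276 to 1302 in mutants). Of 8 germ cell marker rows, 3 passed the filter and 1 of these fell, and their sums were 5.73 to 8.04 TPM and 4.76 to 6.59 TPM. In these lists 0 markers stood at 0 in every library. Their part in the differences of CDC20 and PRC1 was not tested.

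Among 10356 other genes of at least 5 TPM, the 5 whose standardised profile over the 8 libraries lay nearest to the mean profile of the 11 rows were ZFAND3, ZFAND2B, CWC27, EFNB2 (ENSDARG00000020164) and DDX21. Their root-mean-square distances ran from 0.24 to 0.316, where 0 is an identical profile and the median over all candidates was 1.29. None of these 5 belongs to the mitotic lists. The distance of CDC20 from the same mean profile was 0.484 and that of CCNA2 was 1.75, so some members were farther from their own mean than the median candidate gene was.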

How the data were processed

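RNA sequencing libraries from 4 control and 4 mutant samples were grouped and numbered by their titles. Reads were processed with STAR 2.7.3a and RSEM 1.3.1 on build GRCz11, per the submitters' processing notes; strand handling and annotation release are not given in the sources used here. The authors deposited TPM per Ensembl gene, from which depth cannot be recovered, so no counting interval is given. Symbols came from a table matching 29201 of 32520 identifiers. The main test was limma 3.58.1 (R 4.3.3; eBayes with trend, two-sided) on log2(TPM + 1) without covariates, over genes averaging at least 1 TPM, with Benjamini-Hochberg adjustment. The fit was also run on simulated independent values with known changes, which cannot show how it handles shared library effects or TPM scaling. Ratios used Python 3.11.15.

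The members and the 19 lists were chosen with earlier results of these data known. Of 252 list symbols, 21 matched no row, and RRM2B and ECT2L, different genes from RRM2 and ECT2, were left out. Named are the members, at most 3 called genes per direction and list, WEE1, fbxo5 and cdkn1a, and the 5 nearest profiles. Genes outside this rule are marked as named after their values were seen, as are the other ARPP19, PLK2 and CKS2 rows. An identifier in brackets marks a symbol shared by several rows. Other rows with the symbols STAG1, SMC1A, RRM2, GADD45B and EFNB2 are not described, so their values stand for the row and not the gene. No sequence is shown. A listed gene is counted but not reported here by name. Alternatives were other pseudocounts, filters, scalings, no trend, a replicate block, summed copies and each library left out.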

Additional observations from a re-analysis of the deposited data

Results flagged for a closer look

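In 144 groups of 4 libraries, 5 values stood far from the other 3 by the ratio of their gap to the group's range. Chance gives about 1 in 20 groups, which is more than were found, so nothing is read from these 5 values. Among the members these were bub1 in mutant replicate 4 (34.86 TPM, the others 30.54 to 31.26) and CDK1 in control replicate 4 (146.2 TPM, the others 135.75 to 136.96). Among the listed genes they were NCAPG2 in mutant replicate 3 (18.98 TPM, the others 15.73 to 16.25), MCM2 in mutant replicate 4 (60.83 TPM, the others 59.2 to 59.22) and NSL1 in mutant replicate 2 (22.05 TPM, the others 19.75 to 20.09).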

How the results depend on the processing

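Across 17 alternatives for each member, CDC20 and the PRC1 row ENSDARG00000005993 kept their direction and their call wherever they were fitted. The PRC1 row ENSDARG00000100918 lost its call in 4 alternatives, the replicate block (adjusted p = 0.0566) and 3 that left out a library. Members called lower numbered 2 to 3 when single libraries were left out, and 2 with the replicate block. Rescaling reversed uncalled differences near 0: plk1 to 0.0033 and CDK1 to 0.011 by median of ratios, and plk1 to 0.010 and CDK1 to 0.017 without mitochondrial and the 50 most abundant genes. Leaving out single libraries moved plk1 between -0.032 and 0.0047, CDK1 between -0.016 and 0.019, aurka between -0.0036 and 0.048, cdkn1a between -0.027 and 0.12, and the CCNB1 over CCNB2 ratio between -0.10 and 0.019 on the log2 scale. Of the 12 mitotic lists' genes, 12 were higher in the main fit, 6 with the replicate block, 19 without mitochondrial and the 50 most abundant genes, and 5 to 11 when single libraries were left out. Calls over all genes numbered 3745, and 2932 with the replicate block. They numbered 2989 to 3254 when single libraries were left out, so calls were lost in general with 1 library fewer. Same-numbered libraries did not deviate together (correlations across genes from -0.10 to -0.03). The labels state no pairing, and correlations of this kind cannot exclude one. Of 48 other listed genes called, 24 kept their call throughout. Causes were not tested. Depth is unknown, and differences of a few percent lie within the intervals of most members.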
